A study of Mus musculus with 19 samples.

Results

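The transcripts described here are long non-coding RNAs of neural progenitor cells: every Ensembl transcript target whose GENCODE M21 transcript type is lincRNA or antisense. Of the 150173 targets in each ladder file, 13120 met this rule, 8739 lincRNA and 4381 antisense transcripts, which belong to 8814 genes. GENCODE M21 annotates 13612 such transcripts. The cells came from embryonic mouse cortices that were Mettl14 wild type (WT) or Mettl14 conditional knockout (KO), METTL14 being a subunit of the enzyme that writes N6-methyladenosine on RNA. Both genotypes were cultured on Matrigel in Neurobasal medium with heparin, B27 and FGF2 and EGF at 20 ng/ml each. The labels do not name the Cre driver of the conditional allele, the age of the embryos or whether replicates were separate cultures, so every p-value measures the spread between these libraries alone. Each genotype had 4 ladder libraries, in which mRNA was cut into 7 length bands before sequencing as 75-base read pairs. WT cells also had 3 standard libraries of 50-base single reads, and each genotype had native RNA and direct cDNA nanopore libraries, with 2 replicates pooled in each of the assemblies.

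LincRNAs are transcribed from between protein-coding genes, and antisense transcripts run across a coding gene on its other strand. Most are spliced and polyadenylated as messenger RNAs are but carry no long reading frame, and many are low in level and stay in the nucleus. Some act at their own locus, as Xist does when it silences an X chromosome, some are hosts from which microRNAs or small nucleolar RNAs are cut, and some share a start region with a neighbouring developmental gene.

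Several of the genes carry a microRNA on their own strand, and the mature sequences of those that the results turn on are shown first. They come from RefSeq (GRCm38.p6), run 5′ to 3′, and have the seed (bases 2 to 8), which pairs with targets, in capitals. miR-9 is cut from 3 host genes. miR-17, miR-20a, miR-18a, miR-19a, miR-19b and miR-92a lie in Mir17hg and hold 4 seeds, of which miR-17 and miR-20a share one and miR-19a and miR-19b another.
miR-9-5p: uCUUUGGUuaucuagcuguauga
miR-17-5p: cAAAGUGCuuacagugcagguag
miR-20a-5p: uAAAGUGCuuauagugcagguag
miR-18a-5p: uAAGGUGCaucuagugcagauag
miR-19a-3p: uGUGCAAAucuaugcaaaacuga
miR-19b-3p: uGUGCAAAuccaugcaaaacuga
miR-92a-3p: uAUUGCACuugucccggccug

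The let-7 members let-7a, let-7f and let-7d lie in 6720427I07Rik and share the seed GAGGUAG. miR-181a and miR-181b lie in Gm4258, share the seed ACAUUCA and differ outside it. miR-100 and miR-125b lie in 3110039I08Rik, a gene that rose, while miR-99a, which has the seed of miR-100, lies in Mir99ahg.
let-7a-5p: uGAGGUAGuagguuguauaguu
let-7f-5p: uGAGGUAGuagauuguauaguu
let-7d-5p: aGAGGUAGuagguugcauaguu
miR-181a-5p: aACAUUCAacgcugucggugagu
miR-181b-5p: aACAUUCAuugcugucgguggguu
miR-100-5p: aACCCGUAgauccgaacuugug
miR-99a-5p: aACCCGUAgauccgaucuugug
miR-125b-5p: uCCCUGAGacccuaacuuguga

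The transcript with the largest rise, ENSMUST00000177150 of AA465934, covers chr11:83291699-83294631 on the + strand (GENCODE M21, GRCm38) and is 383 bases long. Its first 120 bases are shown because the 51 bases in capitals are the stretch that tells it from every other annotated transcript. Of its 353 words of 31 bases, 21 occur in no other GENCODE M21 transcript, so among annotated transcripts only reads over them are its own. Targets outside that annotation were not searched for these words.
AA465934: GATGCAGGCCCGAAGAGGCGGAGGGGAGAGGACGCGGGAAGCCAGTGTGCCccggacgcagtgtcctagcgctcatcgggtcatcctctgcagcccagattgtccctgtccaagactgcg

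Start regions are shown for genes that lie head to head with a coding gene, each 250 bases before and 50 bases after the RefSeq start (GRCm38.p6). Capitals mark CCAAT or its reverse complement ATTGG. The windows are chr3:45378211-45378510 on the - strand for 2610316D01Rik, chr11:60931818-60932117 on the - strand for Map2k3os, chr11:88718393-88718692 on the + strand for C030037D09Rik and chr2:156839757-156840056 on the + strand for Tgif2. The first shares 237 bases with the window of Pcdh10 on the opposite strand, the next shares 286 bases with that of Map2k3, and the window of C030037D09Rik shares 135 bases with that of Msi2. The Tgif2 window, which holds no CCAAT, contains the start sites of 3 annotated transcripts of Gm14230 on the other strand.
2610316D01Rik: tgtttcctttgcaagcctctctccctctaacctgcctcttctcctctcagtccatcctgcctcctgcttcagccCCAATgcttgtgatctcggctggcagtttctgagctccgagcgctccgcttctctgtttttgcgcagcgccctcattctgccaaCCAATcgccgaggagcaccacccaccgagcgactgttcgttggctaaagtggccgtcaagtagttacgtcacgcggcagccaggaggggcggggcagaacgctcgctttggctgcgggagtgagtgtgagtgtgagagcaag
Map2k3os: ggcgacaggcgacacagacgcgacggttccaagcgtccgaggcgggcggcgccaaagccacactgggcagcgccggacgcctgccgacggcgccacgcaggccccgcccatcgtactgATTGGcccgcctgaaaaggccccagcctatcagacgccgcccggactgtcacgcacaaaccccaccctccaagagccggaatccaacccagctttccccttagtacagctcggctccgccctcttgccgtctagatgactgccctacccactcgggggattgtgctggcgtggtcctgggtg
C030037D09Rik: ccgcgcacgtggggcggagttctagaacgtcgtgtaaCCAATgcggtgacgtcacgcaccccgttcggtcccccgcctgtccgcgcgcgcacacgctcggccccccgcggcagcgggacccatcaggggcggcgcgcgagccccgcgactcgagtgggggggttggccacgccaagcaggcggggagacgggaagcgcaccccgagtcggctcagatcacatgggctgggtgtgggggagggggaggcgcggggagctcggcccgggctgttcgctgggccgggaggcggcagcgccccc
Tgif2: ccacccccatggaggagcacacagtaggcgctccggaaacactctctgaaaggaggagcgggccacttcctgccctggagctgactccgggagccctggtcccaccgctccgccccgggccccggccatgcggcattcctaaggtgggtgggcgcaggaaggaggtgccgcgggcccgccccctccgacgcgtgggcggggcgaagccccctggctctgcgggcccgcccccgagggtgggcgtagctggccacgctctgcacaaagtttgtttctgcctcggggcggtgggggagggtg

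The ladder libraries held 103752000 to 126922000 estimated counts in WT and 104900000 to 118198000 in KO. Mettl14 was 28.6, 23.2, 32.6 and 31.6 CPM (counts scaled to library size) in the WT ladder libraries against 7.03, 9.25, 7.59 and 7.92 in KO, a log2 fold change of -1.87 (adjusted p = 5.4e-07). Summed levels of 7 progenitor markers, 2 of which fell and 1 of which rose, were 5417 to 6970 TPM (scaled to transcript length and library size) in WT and 3898 to 4348 in KO. The sum of 6 oligodendrocyte-lineage markers (2 rose, 4 fell) was 302 to 420 TPM in WT and 492 to 729 in KO. Sums overlapped between genotypes for 5 neuronal markers (4 fell; 45.3 to 66.5 and 33.5 to 48.2) and 5 astrocyte markers (4 rose, 1 fell; 131 to 195 and 122 to 179). Sums were low for 6 meningeal fibroblast markers (4 of 5 tested rose; 0.114 to 0.210 TPM in WT, 1.81 to 2.85 in KO), 6 microglial markers (2 of 2 tested rose; 0.290 to 0.444 and 0.502 to 0.887, C1qa at 0 throughout) and 6 endothelial and mural markers (3 of 4 tested rose; 0.638 to 0.925 and 0.956 to 1.26, Cdh5 at 0 in WT). Ribosomal RNA took 4.63 to 9.45% of counts in WT and 2.59 to 3.10% in KO. What part these differences had in the results below was not tested, and in these bulk samples fewer cells of a type and less RNA per cell cannot be told apart.

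LincRNA and antisense transcripts together were a small part of the RNA. LincRNAs took 0.704 ± 0.105% of estimated counts in WT and 0.571 ± 0.0737% in KO (SD, n = 4; two-sided exact permutation test p = 0.0857, 0.229 after Benjamini-Hochberg adjustment over 4 tests). Malat1, a nuclear-speckle RNA, alone made up 0.345% of all counts in WT and 0.282% in KO. Antisense transcripts took 0.104 ± 0.00467% and 0.100 ± 0.00335% (p = 0.314 in the exact permutation test, 0.314 adjusted). A level of 1 TPM or more was reached by 315 ± 24.4 members in WT and 328 ± 18 in KO (exact permutation p = 0.429). At the other end, 4448 of the 13120 had no count in any of the 8 ladder libraries.

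The comparison of KO with WT cells asks how these RNAs differ when Mettl14 is lost. Levels are given as CPM after scaling by the trimmed mean of M-values (TMM), and a call is an adjusted p under 0.05 in edgeR's quasi-likelihood test, adjusted by Benjamini-Hochberg over all 59136 targets that passed its filter on low counts. That filter kept 2218 members, and 849 of them (38.3%) were called, near the 37.3% called over all targets. The direction was uneven: 293 members rose (13.2%, against 18.2% of all targets) and 556 fell (25.1%, against 19.1%). For 800 of the 849 called members the WT and KO libraries did not overlap, near the share over all targets, 20307 of 22044 called (34.3% of all targets tested). The median log2 fold change was -0.253 over members and -0.061 over all targets. Of the tested members, 1811 had an average log2 CPM under 0. At that level the median was -0.259 in members and -0.219 in all targets. There 12.2% of members and 11.7% of all targets rose, and 23.7% and 18.7% fell. At 0 or more the median was -0.222 in 407 members and 0.056 in all targets. There 17.7% and 23.8% rose, and 31.2% and 19.4% fell.

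LincRNA and antisense transcripts leaned the same way. Of 1202 lincRNA transcripts tested, 172 rose and 317 fell (median -0.254), and of 1016 antisense transcripts 121 rose and 239 fell (median -0.252). Protein-coding transcripts leaned the other way, with 6398 rises and 4380 falls among 28083 (median 0.088). That lean lay in those of average log2 CPM 0 or more (4994 and 2996 of 18778, median 0.131). Those under 0 gave 1404 rises and 1384 falls of 9305 (median -0.032). Retained-intron transcripts had 559 rises and 2450 falls of 9277, and processed transcripts had 466 and 726 of 3861. At the gene level, 273 of 1776 tested genes with a member rose (15.4%, against 26.4% of all 18687 genes) and 619 fell (34.9%, against 27.2%). Over all genes 53.6% were called, and 46.7% were called without overlap. Gm26825, picked after its values were seen, went from 157, 181, 173 and 173 CPM to 31.8, 45.6, 23.5 and 34.5 (log2 -2.34 ± 0.18, adjusted p = 8.7e-07), with no overlap.

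**Figure D1:**
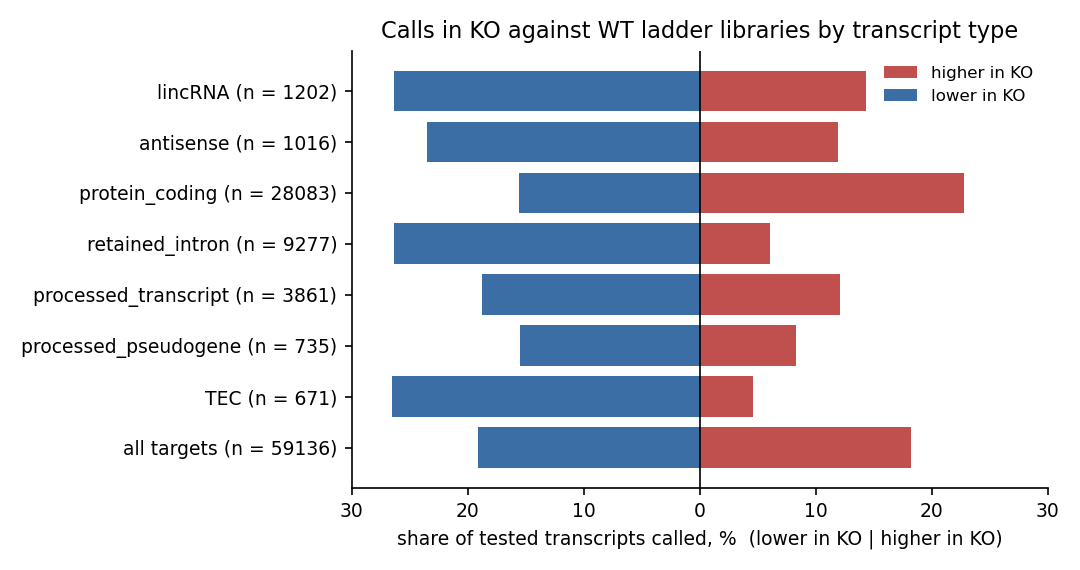
Share of tested transcripts that were lower (bars to the left) or higher (bars to the right) in KO than in WT ladder libraries, in percent, by GENCODE transcript type, with the number tested. LincRNA and antisense bars reach further to the left (26.4% and 23.5%) than to the right (14.3% and 11.9%), and protein-coding bars the reverse.

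The largest rises among members of average log2 CPM 0 or more were led by a short isoform of AA465934. ENSMUST00000177150 measured 0.0773, 0.0955, 0.0743 and 0.0809 CPM in the WT libraries and 9.61, 8.62, 11.1 and 14.3 in KO, a log2 fold change of 7.03 ± 0.24 (SE; adjusted p = 3.6e-06). All 4 KO libraries lay far above all 4 WT libraries. In the pooled long-read StringTie assemblies its exact intron chain stood at 0 TPM in native RNA and in cDNA of both genotypes. Structures that share an intron with it stood at 3.40 TPM in native WT, 9.16 in native KO, 0.888 in cDNA WT and 0.870 in cDNA KO. The gene as a whole rose less, from 2.52 ± 0.316 to 13.7 ± 2.95 CPM (log2 2.44).

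Gm9934, an antisense gene opposite Fam181b, was the most abundant of these rises by count. Its transcript at chr7:93067331-93080794 went from 18, 23.7, 28.4 and 22.4 CPM to 134, 119, 146 and 123 (log2 2.5 ± 0.16, adjusted p = 2.4e-05), with no overlap. It shares 904 exon bases with Fam181b, which rose from 14.1 to 22.9 CPM (log2 0.70), and because the labels do not say that the libraries kept strand, reads over shared bases cannot be assigned to one strand. Gm16759 was in the same position, with 830 bases shared with 2300009A05Rik: the antisense transcript went from 0.251, 0.581, 0.875 and 0.836 to 2.24, 1.92, 2.1701 and 3.75 CPM (log2 1.98) while its partner rose from 6.37 to 29.2 CPM.

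Gm14230 starts next to Tgif2, a homeobox repressor of TGF-beta signalling. Its transcript ENSMUST00000137463 (chr2:156833049-156839820) measured 0.454, 0.462, 0.429 and 0.387 CPM in WT and 2.00, 1.82, 2.31 and 1.73 in KO (log2 2.18 ± 0.16). B230311B06Rik (chr7:118592446-118596838) went from 0.928, 1.03, 1.51 and 1.03 to 3.94, 3.53, 3.11 and 3.92 (log2 1.68), and Tmc5, 459 bases away, rose by 1.12. In both cases every KO library exceeded every WT library. C030037D09Rik, head to head with the RNA-binding protein gene Msi2, had its transcript ENSMUST00000138007 rise from 0.734, 0.589, 0.504 and 0.665 to 2.25, 2.45, 1.98 and 2.36 CPM (log2 1.86).

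The other 4 named rises were 1810032O08Rik, 2900052N01Rik, Gm46212 and 2810049E08Rik. 1810032O08Rik, which RefSeq names Snhg16, had ENSMUST00000142834 rise from 0.495 ± 0.116 to 3.19 ± 0.538 CPM (log2 2.68; 288 exon bases shared with coding exons on the other strand) while the gene as a whole was not called (log2 -0.04, adjusted p = 0.81). 2900052N01Rik varied widely in KO, at 2.68, 1.62, 6.43 and 1.52 CPM against 0.792, 0.390, 0.520 and 0.503 in WT, and its log2 fold change of 2.47 became 1.82 without KO library 3. Gm46212, which shares 441 exon bases with the adhesion receptor gene Adgrg6 on the other strand, rose by 1.89 (Adgrg6 itself -0.20, adjusted p = 0.41). 2810049E08Rik, whose nearest coding gene Mef2c lies 224128 bases away, rose by 1.66 (Mef2c -0.41, adjusted p = 0.125).

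Imprinted RNAs were among the largest falls. H19, a maternally expressed RNA next to Igf2 and the host of miR-675, had ENSMUST00000136359 (chr7:142575529-142578143) at 47.8, 41.7, 61.0 and 59.9 CPM in WT and 1.31, 1.48, 1.64 and 1.47 in KO, a log2 fold change of -5.15 ± 0.17 (adjusted p = 3.6e-06). Rian, maternally expressed from the Dlk1-Meg3 domain, went from 2.93, 2.67, 3.56 and 3.82 to 0.402, 0.466, 0.419 and 0.320 CPM (log2 -3.01). Neither set of libraries overlapped.

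Several falls were of lincRNAs far from any coding gene or beside one that fell too. 9330188P03Rik (chr14:105589476-105594928) was at 4.91, 4.75, 5.04 and 4.97 CPM in WT and 0.515, 0.628, 0.483 and 0.886 in KO (log2 -2.97 ± 0.22). Its nearest coding gene, Ndfip2, lies 280178 bases away and fell by 0.61 on the log2 scale. I730030J21Rik went from 1.95, 1.93, 1.96 and 2.30 to 0.365, 0.228, 0.228 and 0.420 CPM (log2 -2.71), and Galnt6, a mucin-type glycosyltransferase gene 1128 bases away, fell by 3.22 from 0.591 to 0.0624 CPM. Mir124a-1hg, a host of the neuronal microRNA miR-124, went from 2.15, 2.32, 1.70 and 2.5 to 0.365, 0.304, 0.374 and 0.228 CPM (log2 -2.77).

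The other 5 falls were BC037039, Gm29408, 1500004A13Rik, AI849053 and Gm26822. BC037039 (3.46, 3.04, 3.60 and 1.70 against 0.131, 0.0951, 0.100 and 0.119 CPM; log2 -4.71) shares 1559 exon bases with the protocadherin gene Pcdhgc3 on the other strand, and 70.3% of its 31-base words occur in other genes. Gm29408, only 216 bases long, fell by 2.86 with 51.6% of its words shared. 1500004A13Rik had one isoform fall by 2.75 and the gene fall by 1.41. AI849053 spread widely (1.05, 0.772, 2.86 and 3.10 against 0.505, 0.0476, 0.356 and 0.146 CPM), and its adjusted p went from 0.019 to 0.053 without KO library 4. Gm26822 measured 57.6, 150, 99.4 and 47.9 CPM in WT and 7.54, 10.5, 6.81 and 32.3 in KO, and its log2 fold change of -2.63 became -3.41 without KO library 4.

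**Figure D2:**
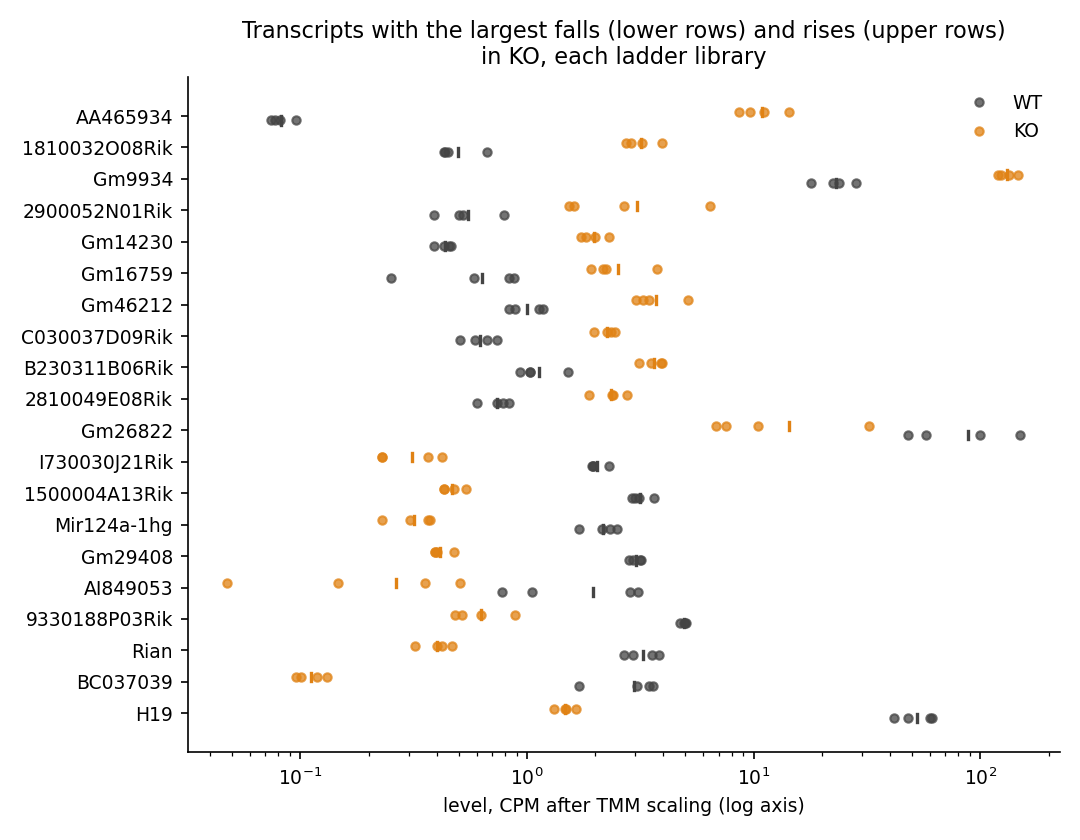
Level of the 10 largest falls (lower rows) and 10 largest rises (upper rows) in each ladder library, in CPM on a log axis; points are the 4 libraries of a genotype, short bars their mean. By the rule that chose them all KO points of a row lie on one side of all WT points, and AA465934 at the top and H19 at the bottom have the widest gaps.

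Isoforms of 1 gene could move against each other. Of 315 genes with 2 or more tested members, 109 had at least 2 members called. In 26 all rose, in 67 all fell, and in 16 isoforms were called in both directions. Over all targets tested, 18.2% rose and 19.1% fell. Genes of other types were not counted in this way, so the 16 cannot be called particular to lincRNA and antisense genes. Examples from these 16 were picked with their values in view, and isoform estimates share reads because isoforms overlap. Gm29521 was one: ENSMUST00000216859 went from 5.27, 5.12, 8.13 and 7.24 to 1.16, 0.980, 1.18 and 1.76 CPM (log2 -2.34), and ENSMUST00000187061 from 0.135, 0.103, 0.107 and 0.117 to 0.964, 0.733, 0.985 and 1.21 (log2 3.06). ENSMUST00000216859 had the higher CPM of the pair in every library of both genotypes, by less in KO. C130071C03Rik, a host of miR-9, had ENSMUST00000131907 fall from 9.57, 10.8, 11.3 and 11.0 to 4.35, 6.60, 7.28 and 5.25 CPM (log2 -0.87) and ENSMUST00000187663 rise from 0.657, 0.629, 0.636 and 0.719 to 2.08, 2.32, 1.99 and 1.73 (log2 1.62).

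Mir124-2hg, a host of miR-124, also split. ENSMUST00000185804 fell from 5.72, 5.47, 5.17 and 5.25 to 1.34, 1.46, 1.43 and 1.15 CPM (log2 -2.01, adjusted p = 3.3e-05). ENSMUST00000189868 was 0.406, 0.247, 0.570 and 0.378 against 0.814, 0.733, 0.675 and 1.50 (log2 1.22, adjusted p = 0.022), a call that ended without WT library 1 (0.052) or WT library 4 (0.055). Gm7160 (ENSMUST00000188519 log2 -0.89, ENSMUST00000185535 2.15) and 4933404O12Rik (ENSMUST00000181190 log2 -1.71, ENSMUST00000197095 1.54) were called in both directions as well.

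Known long non-coding RNAs were taken as 6 lists, whose counts stand against 26.4% of all genes that rose and 27.2% that fell, 53.6% called in all. Among the imprinted genes, 5 of 7 tested fell and none rose (median log2 -1.37, against -0.033 over all genes): H19 fell from 61.9 ± 9.82 to 1.69 ± 0.143 CPM (log2 -5.19) and Meg3, a maternally expressed RNA, from 4.66 ± 0.127 to 0.154 ± 0.0340 (log2 -4.91). Airn, which silences the Igf2r cluster, was 2.02, 2.69, 2.35 and 2.59 in WT and 2.42, 2.76, 2.31 and 3.03 in KO (adjusted p = 0.48). Of the X-inactivation genes, 2 of 3 tested fell (median -1.22). Xist, which coats the inactive X chromosome, went from 187, 210, 158 and 138 to 71.1, 58.2, 49.4 and 44.9 CPM (log2 -1.63 ± 0.17), and Ftx, a neighbour of Xist, fell by 1.22 on the log2 scale.

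Nuclear and widely expressed RNAs gave 1 rise and 5 falls among 9 (median -0.45). Miat went from 10.5, 15.5, 11.2 and 6.01 to 3.40, 2.08, 1.30 and 2.81 CPM (log2 -2.174), and Dubr from 8.39 ± 0.868 to 3.13 ± 0.481 (log2 -1.42). Neat1, the scaffold of paraspeckles, rose from 0.705, 0.623, 0.746 and 0.370 to 1.30, 2.20, 0.688 and 1.89 CPM (log2 1.31, adjusted p = 0.0065), with KO library 3 inside the WT range. The call on Lncpint, a fall of 0.90 (adjusted p = 0.020), ended without KO library 2, 3 or 4 or WT library 2 (adjusted p from 0.052 to 0.063).

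Among RNAs next to developmental transcription factor genes, 2 of 6 tested rose and 1 fell (median -0.11). Hotairm1 rose from 0.439, 0.576, 0.875 and 0.645 to 1.21, 1.18, 1.01 and 1.99 CPM (log2 1.08). Emx2os, antisense to the cortical patterning gene Emx2, rose from 0.756 ± 0.224 to 1.45 ± 0.198 CPM (log2 0.95). Nkx2-2os fell from 0.823 ± 0.123 to 0.346 ± 0.0614 (log2 -1.25). Hosts of small nucleolar RNAs gave 2 rises and 5 falls of 12 (median -0.14): Snhg10 rose by 0.61 and Snhg20 by 0.57, and Snhg14 fell by 1.37 and Snhg18 by 1.08. In the list of microRNA hosts 5 of 8 tested fell and none rose (median -0.82).

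A further set of microRNA hosts, chosen after values were seen, was built from the RefSeq positions. The RefSeq entries used hold none for miR-124, so the set is not complete. Its hosts Mir124a-1hg and Mir124-2hg, which both fell (log2 -2.83 and -0.92), are not in the counts below. Of the tested genes with a member, 36 carried a RefSeq microRNA on their strand, 60 microRNA genes in all. Of these 36 genes, 17 fell, 5 rose and 14 were not called, where 34.9% of all tested genes with a member fell and 15.4% rose; the genes that fell carry 33 of the microRNA genes and those that rose carry 6. The values are levels of the host RNA, and mature microRNAs are not analysed here.

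The 3 hosts of miR-9, whose sequence stands above, did not move alike. Mir9-3hg went from 7.57, 7.06, 8.45 and 10.3 to 2.37, 2.52, 3.18 and 2.24 CPM (log2 -1.69 ± 0.15, adjusted p = 3.7e-06). C130071C03Rik went from 12.7, 14.2, 13.7 and 14.2 to 8.11, 10.6, 10.9 and 8.64 (log2 -0.52 ± 0.12). Gm3764 was 118, 122, 133 and 128 in WT and 137, 131, 132 and 146 in KO (log2 0.12, adjusted p = 0.289). Gm3764 was thus the host with most counts and had WT and KO libraries that overlapped, while the other hosts had none that did. No test of the difference between hosts was run.

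Mir17hg, host of a cluster known for its part in progenitor growth, fell from 3.21, 2.78, 2.22 and 3.13 to 1.59, 1.75, 2.05 and 1.50 CPM (log2 -0.72). The host of let-7a, let-7f and let-7d, 6720427I07Rik, fell from 6.77, 6.02, 6.20 and 6.55 to 4.27, 4.06, 3.32 and 4 (log2 -0.71). let-7 is known for its rise as progenitors differentiate. The overlapping genes Gm4258 and A430106G13Rik, which carry miR-181b (and Gm4258 also miR-181a), fell by 0.79 and 0.95. A230057D06Rik, which carries 7 genes of the miR-344 family, fell from 3.46 ± 0.384 to 1.56 ± 0.229 CPM (log2 -1.15). D030055H07Rik (miR-135a) fell by 1.13, C78859 (miR-138) by 0.98 and Mir155hg (miR-155) by 1.46, all from under 1 CPM.

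3110039I08Rik, with miR-100, let-7a-2 and miR-125b-1, rose from 16.8, 17, 15.2 and 15.7 to 23.0, 23.3, 22.8 and 21.2 CPM (log2 0.48 ± 0.09, adjusted p = 0.00075). Gm49317, which overlaps it and carries the same 3 microRNA genes, rose by 1.68 from 0.224 ± 0.0432 CPM. Mir99ahg, with the sister cluster of miR-99a and let-7c, was 2.55, 2.63, 2.10 and 2.18 against 2.78, 2.99, 3.10 and 2.55 CPM (log2 0.27, adjusted p = 0.085). Lncppara, with let-7c-2 and let-7b, was 2.49 ± 0.208 and 2.40 ± 0.243 CPM (adjusted p = 0.72).

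**Figure D3:**
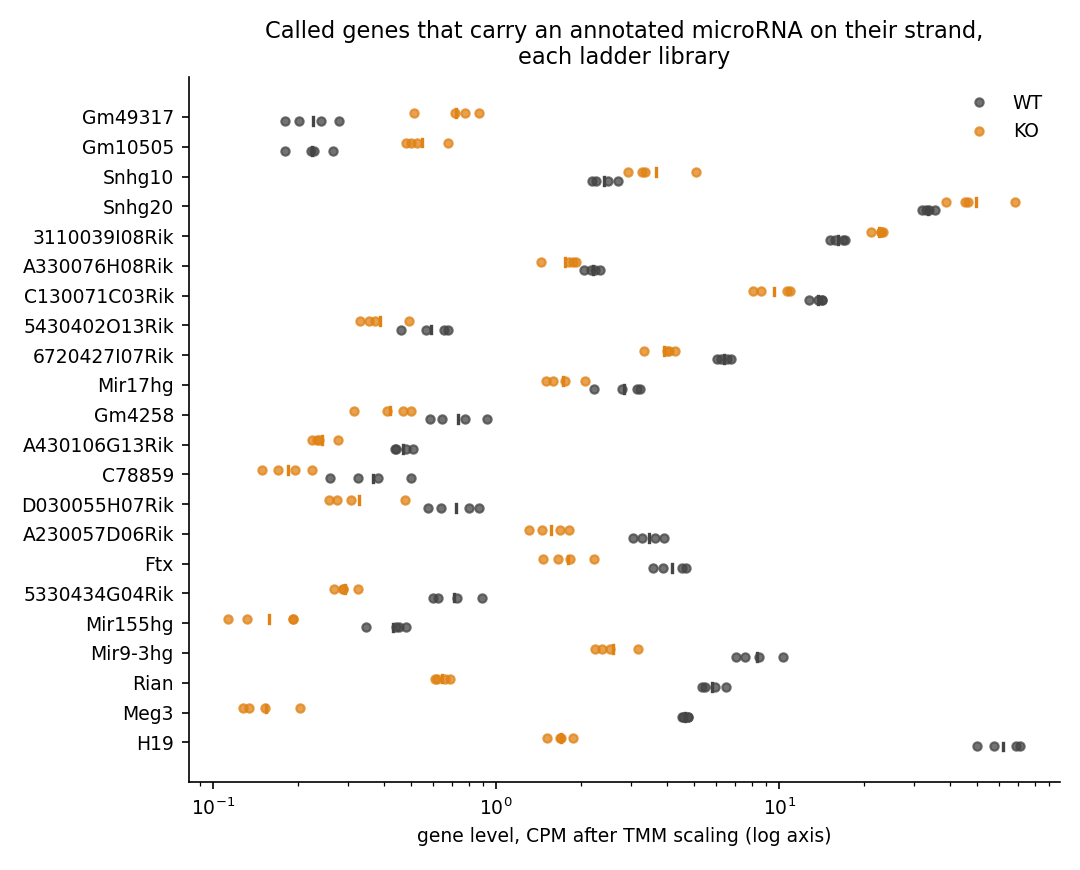
Level of the 22 called genes that carry a RefSeq microRNA on their strand, in each ladder library, in CPM on a log axis, ordered from the largest fall (bottom) to the largest rise (top); points are libraries, short bars means of 4. H19 and Meg3 have the widest gaps between WT and KO, and the 5 genes that rose stand at the top.

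Position relative to coding genes was read from the annotation. Of the 13120 transcripts, 7974 lay between coding genes (median distance to the nearest 58010 bases), 730 were divergent, with a start within 2 kb of that of a coding gene on the other strand, 4282 overlapped a coding gene on the other strand, and 134 overlapped one on the same strand. Falls outnumbered rises in each class: 223 and 132 of 851 tested between coding genes, 65 and 31 of 280 divergent, 256 and 125 of 1045 on the other strand, and 12 and 5 of 42 on the same strand. The split of transcripts that share exon bases with an opposite coding gene (200 falls and 94 rises of 828) was near that of transcripts that share none (356 and 199 of 1390).

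Genes with a member were set beside their nearest coding gene in 1585 pairs with 1434 partners, all from the same 8 libraries. Both genes were called in 474 pairs, in the same direction in 314 (66.2%). Taken singly, 50.2% of tested genes with a member were called, and 55.5% of protein-coding genes (29.9% rose and 25.5% fell). Over pairs, Pearson's r between the log2 fold changes was 0.286. For 200 divergent pairs r was 0.527, with 38 of 60 pairs called in the same direction (63.3%). For 843 pairs overlapping on opposite strands r was 0.320, with 167 of 245 (68.2%). Where these share exon bases it was 140 of 200 (70%), and where they share none 27 of 45 (60%). Of the pairs between coding genes, the share in the same direction was 71.2% (37 of 52) where the partner lay within 10 kb, 66.2% (51 of 77) from 10 to 100 kb and 41.9% (13 of 31) beyond 100 kb, where r was -0.048. These are descriptions across pairs, some of which share a partner, and the differences between the classes were not tested.

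**Figure D4:**
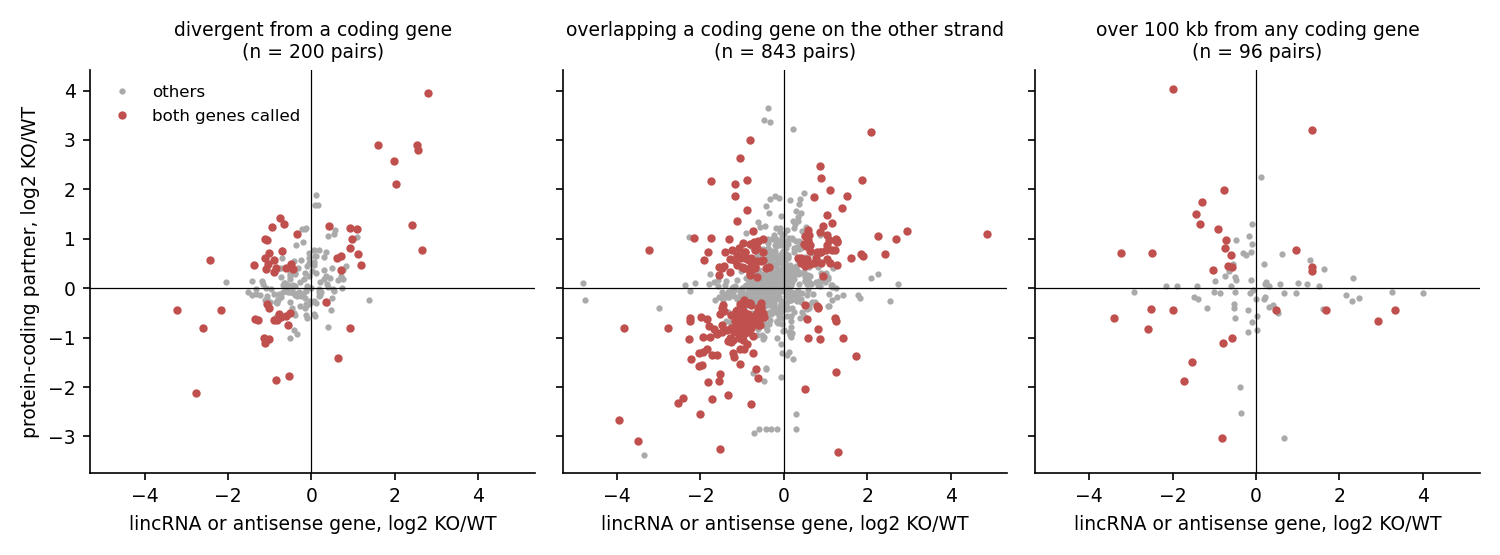
Log2 fold change (KO over WT) of the lincRNA or antisense gene (x axis) against that of its protein-coding partner (y axis) in divergent pairs, pairs overlapping on opposite strands and pairs over 100 kb apart; red points have both genes called. Points lean along the rising diagonal in the divergent panel (r = 0.527), and show no lean beyond 100 kb (r = -0.048).

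The head-to-head pairs named here were chosen after their values were seen. Gm14230 rose from 0.601, 0.670, 0.599 and 0.518 to 2.5, 2.27, 3.00 and 2.05 CPM (log2 2.04 ± 0.15), and Tgif2, 187 bases away, from 25.4, 13.4, 32.6 and 30.7 to 89.6, 117, 121 and 115 (log2 2.12 ± 0.24). Gm2694 fell from 2.98, 2.38, 3.56 and 2.72 to 0.373, 0.424, 0.354 and 0.554 CPM (log2 -2.77 ± 0.18), and Cbln1, which encodes a secreted synapse organiser and starts 525 bases away, fell from 3.28, 2.83, 3.82 and 3.64 to 0.607, 0.944, 0.759 and 0.800 (log2 -2.12 ± 0.16). In both pairs all KO libraries lay on one side of all WT libraries for lincRNA and coding gene alike. 2610316D01Rik fell from 5.50, 5.64, 4.53 and 3.93 to 1.98, 1.82, 1.64 and 2.67 CPM (log2 -1.27), beside Pcdh10, a protocadherin gene that fell from 105, 110, 87.6 and 97.3 to 66.8, 64.6, 66.7 and 59.1 (log2 -0.64).

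Other head-to-head pairs differed from these or moved with them. Map2k3os fell from 2.61, 3.01, 2.166 and 2.42 to 1.28, 1.70, 1.67 and 1.61 CPM (log2 -0.71 ± 0.14), while Map2k3, a kinase of the p38 pathway, rose from 16.4, 13.5, 17.7 and 18.1 to 26.9, 27.7, 31.1 and 26.0 (log2 0.76 ± 0.11). C030037D09Rik rose from 2.38, 2.45, 2.29 and 2.41 to 6.09, 6.70, 5.44 and 6.44 (log2 1.37 ± 0.11), and Msi2 was 140, 154, 122 and 109 against 130, 108, 102 and 103 (log2 -0.24, adjusted p = 0.138; 0.049 without WT library 4). For Map2k3 and its antisense neighbour the libraries of each gene did not overlap, and those of Msi2 did. 9330104G04Rik fell by 1.12 beside Dact3, a Wnt pathway antagonist gene with a log2 fold change of 1.00 (adjusted p = 0.015, or 0.082 with no filter on low counts). Gm13375 rose from 5.78, 6.93, 7.11 and 7.13 to 13.9, 14.8, 14 and 15.8 CPM (log2 1.12 ± 0.11), and Arhgap21, a GTPase-activating protein gene 173 bases away, rose with it by 0.70.

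Start regions were compared by base composition and short motifs. Of 3294 member genes matched to RefSeq by symbol, 2253 had a start within 100 bases of the annotated one, and 574 of these were tested. Median GC was 55.0% in windows of the 107 that rose, 57.3% in the 200 that fell and 56.0% in the 267 not called, against 48.3% in those not tested and 57.0% for coding genes. The ratio of observed to expected CpG was 0.506, 0.652 and 0.521 in the same order, against 0.239 and 0.588. CCAAT on either strand stood in 32.7% of windows that rose and 39.0% that fell. It stood in 40.1% of those not called, 37.8% for coding genes and 37.4% of all 32851 RefSeq windows. TATAAA, searched on both strands, stood in 11.2% and 10% (not called 10.1%, coding genes 12.2%, all windows 13.6%). GGGCGG, also searched on both strands, stood in 39.3% and 49% (not called 46.8%, coding genes 47.7%, all windows 35.7%). None of these differences was tested.

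Overlapping pairs on opposite strands were often concordant, but most share exon bases, as do all pairs named in this paragraph. Because the labels do not say that strand was kept, reads over shared bases cannot be assigned to either gene. The antisense values below may therefore hold reads of the coding gene, and how many was not tested. Gm26762 fell from 2.85, 2.94, 2.25 and 1.84 to 0.894, 0.753, 0.769 and 0.985 CPM (log2 -1.54), opposite the glycolysis gene Gpi1, which fell from 2087, 1964, 2387 and 2348 to 623, 654, 723 and 655 (log2 -1.73). AU022754 fell from 1.95 ± 0.108 to 0.587 ± 0.0807 CPM (log2 -1.73), opposite the ligand gene Wnt7b, which fell by 1.34 on the log2 scale. 2810402E24Rik went against its partner: it fell from 4.40, 3.99, 3.01 and 3.43 to 1.09, 0.987, 1.25 and 1.07 CPM (log2 -1.75), while Usp54, of the ubiquitin peptidase family, rose from 16.8, 16.9, 10.03 and 9.83 to 71.2, 59.4, 57.1 and 54.0 (log2 2.1745). These pairs too were picked after their values were seen.

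Antisense transcripts that share no exon base with the opposite gene do not have that limit as far as annotated exons go, and the 6 of highest level among the called ones were followed. Reads from unspliced RNA of the opposite gene were not examined. At the gene level Gm4876, the first of them, does share exon bases with its opposite gene. Gm4876 fell from 1.56, 1.69, 1.87 and 1.46 to 0.337, 0.428, 0.429 and 0.301 CPM (log2 -2.13 ± 0.19), and Tes, a gene for a focal-adhesion LIM protein on the other strand, fell by 0.99. Gm29508 fell from 1.28, 1.54, 1.97 and 1.68 to 0.571, 0.514, 0.775 and 0.904 (log2 -1.23 ± 0.23), and Fam181a opposite it fell by 1.32 from 14.5 to 5.81 CPM. In the pooled native RNA assemblies the same Gm29508 intron chain stood at 6.42 TPM in WT and at 0 in KO. Gm47578 fell by 1.03, but 92.1% of its 31-base words occur in other genes.

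The other 3 of these antisense transcripts rose. Gm20033 rose from 0.628, 0.621, 1.16 and 0.872 to 1.73, 1.38, 1.59 and 2.67 CPM (log2 1.17 ± 0.29) with Klf3 opposite it at a log2 of -0.09. 2900093K20Rik rose from 1.53, 1.31, 1.71 and 1.63 to 2.21, 2.01, 2.10 and 3.14 (log2 0.62, adjusted p = 0.032) together with Oser1 (log2 0.59). E130307A14Rik was 1.62, 1.82, 1.59 and 1.85 against 3.07, 2.38, 2.82 and 1.84 (log2 0.55, adjusted p = 0.043). Its KO library 4 lay inside the WT range. Leaving out any library but KO library 4 ended the call on E130307A14Rik (adjusted p from 0.061 to 0.10). That on 2900093K20Rik ended without KO library 1 or 4 or WT library 1, 2 or 4 (0.0502 to 0.072). With no filter on low counts the adjusted p was 0.066 for the former and 0.0503 for the latter.

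The split was not the same at all lengths. Members of under 500 exon bases gave 36 rises and 24 falls of 194 (median log2 0.091), those of 500 to under 2000 bases 179 and 275 of 1263 (median -0.190), and those of 2000 or more 78 and 257 of 761 (median -0.430). Protein-coding transcripts of the same lengths had medians of 0.179, 0.090 and 0.082, with more rises than falls in each class. At average log2 CPM under 0 that changed for long coding transcripts: those of 2000 or more bases had 667 rises and 767 falls of 4654 (median -0.110). The shorter classes kept more rises there (91 and 54 of 587, and 646 and 563 of 4064). Members of 2000 or more bases at that level gave 59 rises and 172 falls of 580 (median -0.404). Among members of average log2 CPM 0 or more the order held: 6 rises and 2 falls of 32 under 500 bases, 47 and 40 of 194 at 500 to under 2000, and 19 and 85 of 181 at 2000 or more. Single-exon members gave 22 rises and 74 falls of 286 (median -0.364). No test of the difference between lengths was run, and the ladder protocol itself sorts RNA by length.

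Support by native long reads went with the direction as well. Of 226 tested members whose exact intron chain stood in a native RNA assembly, 54 rose and 51 fell (median 0.089). Of 1747 with no native intron or chain, 199 rose and 446 fell (median -0.296). These include the single-exon members, which have no intron that could match, so the next counts are of spliced members alone. At average log2 CPM 0 or more, 33 rose and 26 fell of 132 with a native chain, whereas 21 rose and 60 fell of 141 spliced members with no native intron. Under 0, 21 rose and 25 fell of 94 with a native chain, against 156 and 312 of 1320 spliced members with no native intron. Members whose 31-base words all lie outside other genes gave 95 rises and 132 falls of 555 (median -0.152), and those with over 50% of words in other genes 22 and 54 of 231. GGACT is a frequent context of N6-methyladenosine. Its median density was 0.976 per kb in members that rose, 1.09 in those that fell and 0.992 in the rest. Pooled over all their bases, the densities were close, at 1.08, 1.10 and 1.08 per kb. Median lengths differed, at 1112, 1854.5 and 1332 bases. Over all annotated transcripts the median density was 1.14 in rises and 0.974 in falls (pooled 1.18 and 1.05). Differences in GGACT density were not tested.

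**Figure D5:**
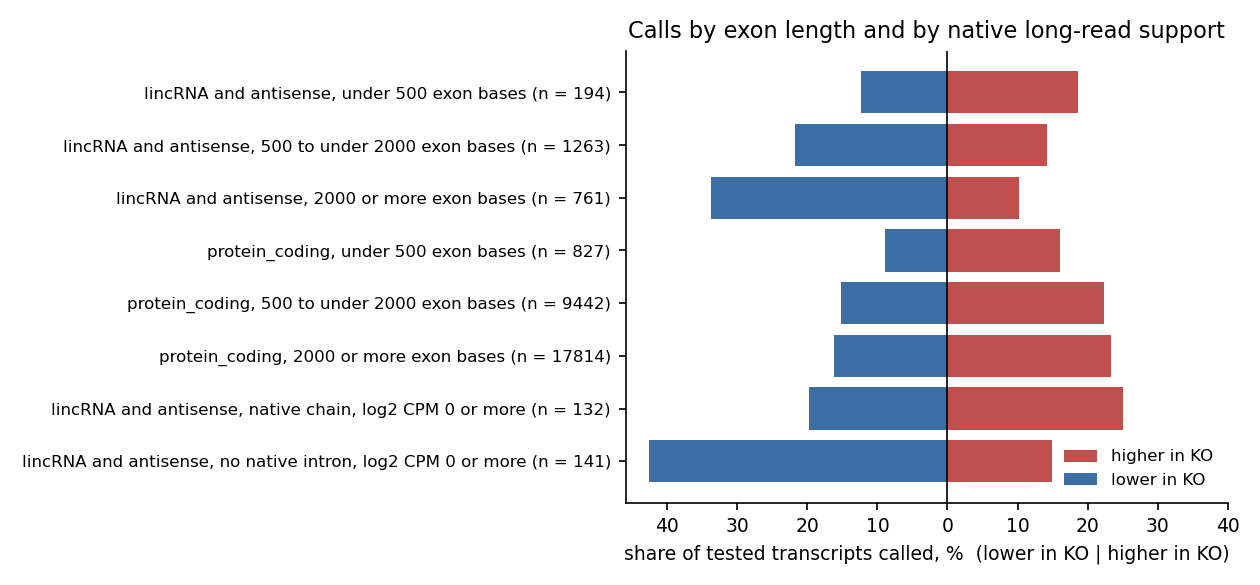
Share of tested transcripts lower (left) or higher (right) in KO, in percent, for members and protein-coding transcripts by exon length, and for members by native long-read support at average log2 CPM 0 or more. Bars to the left grow with length for lincRNA and antisense transcripts (12.4%, 21.8% and 33.8%) and are 8.95%, 15.1% and 16.2% for protein-coding transcripts.

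Long-read structures covered few members. An exact intron chain was found for 501 of the 12348 multi-exon members in at least 1 of 8 assemblies (StringTie and FLAIR, native RNA and cDNA, WT and KO), for 386 in a StringTie assembly and for 62 in all 4 StringTie assemblies. Same-strand exon overlap was found for 2234 members. Of the 317 members with a mean of 1 TPM or more in WT ladder libraries, 275 had several exons and 176 had their chain in a WT assembly. Where a gene whose member rose had StringTie TPM in native RNA, it was higher in KO for 40 and lower for 34. Where a member fell it was higher for 19 and lower for 49. Genes whose members did neither were higher for 42 and lower for 95. These assemblies pool 2 replicates, so the values have no replicate check.

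Hosts of small nucleolar RNAs and Malat1 were among the most abundant members per length. By mean TPM in WT and KO ladder libraries, Malat1 stood at 399 and 336, Gas5 (ENSMUST00000162558) at 318 and 386, Gm15564 at 279 and 216, Snhg6 at 185 and 223, Snhg8 at 137 and 145, Zfas1 at 81.1 and 94.7 and Pantr1 (ENSMUST00000188153) at 75.3 and 99.9. None of these was called (adjusted p from 0.21 to 0.89). AY036118, listed highest at 597 and 486 TPM, was 0, 472, 396 and 1313 CPM in WT and 499, 0, 1210 and 0.1 in KO, and all of its 31-base words occur in other genes, so its level cannot be separated from theirs.

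Native RNA gave Snhg6 344 TPM in WT and 463 in KO, Gas5 (ENSMUST00000159706) 292 and 169, and Snhg8 142 and 97.4. Pantr1, which starts near the neural transcription factor gene Pou3f3, had its isoform ENSMUST00000181725 at 277 TPM in WT and 33.3 in KO. In ladder libraries that isoform went from a mean of 32.7 to 22.0 CPM (log2 -0.57, adjusted p = 0.022). The call ended without KO library 1, 2 or 3 or WT library 1 or 3 (0.056 to 0.069), and with no filter on low counts (0.053). Its isoforms ENSMUST00000176052 and ENSMUST00000186656 rose there (log2 0.91 and 0.90). The Pantr1 gene as a whole was not called (mean 138.6 CPM in WT and 133.9 in KO, log2 -0.049, adjusted p = 0.79). 1810058I24Rik was higher in KO in each kind of library: 15.9, 11.7, 17.5 and 15.5 against 26.9, 24.7, 27.7 and 35.8 CPM in ladder libraries (log2 0.92 ± 0.16, adjusted p = 0.0030), 113 and 235 TPM in native RNA and 9.09 and 26.6 TPM in cDNA. RefSeq lists it as the protein-coding gene of the micropeptide Stmp1.

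Of the 13120 members, 2 had at least 10 counts in each WT library and none in KO, and no member showed the reverse. All targets were not counted in this way, so these counts have no share to stand against. Gm26881 had 55, 57, 115 and 38 counts in WT and none in KO, which makes it at least 20.4-fold lower with a floor of 3 counts per library. Gm28294, opposite the secretory-granule gene Ptprn, had 10, 18, 11 and 12 counts in WT and none in KO and was at least 3.94-fold lower.

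Ladder and standard libraries of WT cells could be compared for few members, because the standard files list 31, 75 and 31 of them and 28 are in all short-read files. Of 15 tested, 2 were higher (24.0% of all 48881 shared targets were) and 3 lower (23.4%) in ladder libraries, 5 called against 47.4% over all shared targets. The median log2 fold change of ladder over standard was 0.885, and 0.106 over all shared targets. Isoforms of 1810032O08Rik moved apart: ENSMUST00000139934 had 354, 698, 627 and 788 counts in ladder and 14, 27 and 43 in standard libraries (log2 2.35 ± 0.45, adjusted p = 0.0043), while ENSMUST00000131260 had 15, 4 and 5 counts in standard and none in ladder libraries, at least 12.1-fold lower in ladder by TMM-scaled CPM. ENSMUST00000127448 of AC133601.1 was higher in ladder libraries (95, 127, 124 and 94 counts against 3, 7 and 11, log2 1.86). ENSMUST00000145090 was lower there by mean CPM (0.0967 against 0.258, log2 -1.40, adjusted p = 0.041), from 6, 10, 6 and 6 counts against 2, 5 and 6. The call on ENSMUST00000145090 ended without standard library 2 (0.12) or 3 (0.16). AC140336.1 was also lower by mean CPM (0.0668 against 0.402, log2 -2.55), from 6, 2, 7 and 4 counts against 5, 7 and 8. CPM allows for the lower depth of standard libraries, and raw counts do not. Counting error alone is wide at such counts, and library type cannot be told apart from read length and depth.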

How the data were processed

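Short-read tables held estimated counts and TPM per target, which the authors deposited as made with kallisto per the submitters' processing notes. How the 7 length bands were combined, and whether strand was kept, are not given in the sources used here. TPM values of long-read assemblies were deposited by the authors in StringTie structures, with minimap2 2.17 and STAR 2.5.4b also in the submitters' processing notes and 2 replicates pooled per file. All coordinates are GRCm38. Estimated counts were rounded and tested with edgeR 4.0.16 in R 4.3.3 (quasi-likelihood, robust, filterByExpr, TMM, Benjamini-Hochberg, threshold 0.05), per transcript and per gene, with WT and KO ladder libraries alone in the fit, or WT ladder and WT standard libraries over shared targets. Standard libraries held 12084500 to 13987900 estimated counts, so low members are imprecise there. The fits were tested on simulated data. Members and lists were chosen with earlier results of these data known.

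Transcripts named as largest rises and falls had an average log2 CPM of 0 or more, a call and no overlap between genotypes, 1 per gene and 10 per direction. Also named were the 8 members of highest mean TPM in WT, the 6 called antisense transcripts of highest level with no shared exon base, up to 5 members of highest native StringTie TPM per genotype, and up to 2 rises and 2 falls per list. Nearest coding genes came from GENCODE M21 gene bodies, and long-read support was an identical intron chain on the same strand. Alternatives were DESeq2 1.42.0, its size factors, no filter, annotated targets alone, a test beyond 1.5-fold, a replicate block and leaving out each library. No replicates differed by less than counting noise, and all were kept.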

Additional observations from a re-analysis of the deposited data

Results flagged for a closer look

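In 7 of 168 groups of 4 libraries the highest or lowest library stood far from the other 3 by Dixon's test, and chance alone flags about 1 in 20 groups. In WT, 1810032O08Rik (ENSMUST00000142834) was high in library 3 at 0.6689 CPM, against 0.4348, 0.4458 and 0.4316 in the others. I730030J21Rik was high in WT library 4 at 2.302 CPM, and the other 3 lay between 1.927 and 1.957. Snhg1 (ENSMUST00000205909) was high in WT library 2 at 0.9075 CPM, with 0.4445, 0.5203 and 0.4765 elsewhere. The gene Gm13375 was low in WT library 1 at 5.777 CPM, below 6.931, 7.114 and 7.131.

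In KO, Gm29408 was high in library 3 at 0.4741 CPM, against 0.3931, 0.3996 and 0.3926. Gm26822 was high in KO library 4 at 32.29 CPM, above 7.543, 10.49 and 6.811, and its WT libraries were all higher still. The isoform ENSMUST00000189868 of Mir124-2hg was high in KO library 4 at 1.497 CPM, above 0.8142, 0.7327 and 0.6747. The call on this Mir124-2hg isoform stood without that library. What set these libraries apart was not tested.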

How the results depend on the processing

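The split of members into rises and falls kept its direction under each alternative run, and counts stayed within 1.5 times except where given here. A test beyond 1.5-fold called 425 transcripts (145 rises, 280 falls) and 438 genes (140 and 298). With no filter on low counts 431 genes rose. With 1 library left out, calls ranged from 715 to 767 transcripts (235 to 275 rises, 460 to 520 falls) and 818 to 877 genes (256 to 273 and 561 to 615). In ladder against standard libraries 4 to 7 members were called (2 to 5 higher, 2 lower). Over the same runs the difference in members at 1 TPM was 4 to 20.33, that in lincRNA share -0.1636 to -0.08168 percentage points and in antisense share -0.005108 to -0.00182. The ladder minus standard share was 3.363e-05 to 0.0001083 for lincRNA and 0.0002754 to 0.0004883 for antisense. It turned to -0.0001052 for antisense without the highest member, and at 0.5 TPM the detection difference turned to -48. Sharing any 1 intron with a long-read structure held for 1095 members. The cause of these changes was not tested, apart from the stricter or looser criterion itself.

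Replicate numbers did not pair the libraries: deviations of same-numbered WT and KO libraries correlated at -0.0587, 0.0781, -0.0551 and 0.0443. A replicate block gave 666 transcripts (224 rises, 442 falls) and 883 genes (274 and 609). In ladder against standard libraries the block, which drops WT ladder library 4, left 1 call in edgeR, 1 higher and 0 lower of 12 tested (2 and 2 at an unadjusted p under 0.05), against 2 higher and 3 lower by DESeq2 without the block. Under the block the adjusted p was 0.0577 for the fall of 4933404O12Rik (ENSMUST00000181190), 0.114 for E130307A14Rik, 0.0522 for 2900093K20Rik and 0.0525 for Pantr1 (ENSMUST00000181725).

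Of the single results under these alternatives, 1739 kept call and direction, 68 lost the call, 30 of them in the test beyond 1.5-fold, and 15 gained one. None of the 18 sign changes was of a called result. With 1 library left out the log2 values of those that turned ranged from -1.705 to 0.5621 for AY036118 (0.07148 and 0.07145 without KO library 2 or 4, 0.5621 without WT library 4), -0.1003 to 0.2353 for the Snhg8 transcript (-0.07362 without KO library 4), -0.207 to 0.001708 for Nespas, -0.06156 to 0.2239 for Epb41l4aos (-0.01315 without WT library 2), -0.1892 to 0.03143 for Pantr1 (0.02643 without KO library 2), -0.4834 to 0.4313 for Snhg9 (-0.007269 without WT library 1), -0.1644 to 0.1153 for the Snhg8 gene (0.04947 and 0.006133 without KO library 2 or 3) and -0.1153 to 0.00412 for Lncppara. With no filter Pantr1 was 0.003879 and the Snhg8 gene 0.0176.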

Other observations

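Members on the X chromosome gave 5 rises and 15 falls among 49 tested (10.2% and 30.6%, against 13.2% and 25.1% of all tested members), and none of the 938 members on the Y chromosome passed the filter on low counts.

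Further lincRNAs changed far from their nearest coding gene or beside one with a known role in neurons, and these too were picked after their values were seen. Gm34923 fell from 2.62 ± 0.436 to 0.457 ± 0.0716 CPM (SD, n = 4; log2 -2.51), 478492 bases from Arl4a, a small GTPase gene that fell by 0.42. Gm2824 fell from 2.15 ± 0.155 to 0.537 ± 0.0702 CPM (log2 -1.996), and Basp1, a growth-cone protein gene 335919 bases away, fell by 0.44 with libraries that overlapped between genotypes. AI504432 fell from 4.72 ± 1.04 to 1.41 ± 0.366 CPM (log2 -1.75), and Kcna3, a potassium channel gene 1434 bases away, fell by 1.28. The divergent gene 4930480K23Rik fell by 1.38 while Chmp7, of the membrane-remodelling ESCRT machinery, rose by 0.47, and 4632404H12Rik fell by 0.85 while Ube2q1, a ubiquitin-conjugating enzyme gene, rose by 0.41.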
